A study of Homo sapiens with 12 samples.

Results

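SR proteins and heterogeneous nuclear ribonucleoproteins (hnRNPs) are the RNA-binding proteins that decide which exons of a pre-mRNA are kept. The set described here holds the 34 genes of the expression table with an SRSF or HNRNP symbol, 12 for SR proteins and 22 for hnRNPs, out of 29607 listed genes. They were chosen by symbol alone, and 5 pseudogene rows were left out. Of the 34, 32 reached 1 TPM (an abundance per transcript length that adds up to an equal sum in every library) in at least 2 libraries and were tested. SRSF12 (at most 0.045 TPM) and HNRNPCL1 (0 in all libraries) did not.

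SR proteins carry RNA recognition motifs and a tail of arginine-serine repeats. The tail is phosphorylated by SRPK and CLK kinases, and the proteins bind exonic enhancers and recruit the U1 and U2 machinery to neighbouring splice sites. Many hnRNPs bind silencers in exons and introns and oppose them, and others of the family package nascent transcripts, bind AU-rich elements of mRNAs or organise chromatin. Many of these genes control their own mRNA through exons or introns that lead to nonsense-mediated decay. Plasma cells, whose secretory output rests on immunoglobulin mRNA processing, depend on this machinery, and hnRNPLL takes part in the switch from membrane to secreted immunoglobulin mRNA in mouse plasma cells.

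All cells were KMS11, an established human multiple myeloma line, and RNA was poly(A)-selected, prepared with a stranded kit and sequenced in 12 libraries of 6 groups with 2 replicates each. Cells carried a first hairpin against the kinase STK17B (sh1), a second one (sh2) or a control hairpin (shControl), were given an STK17B inhibitor, or carried an STK17B cDNA (overexpression) or an empty vector (Vector). The labels give the inhibitor cells, shControl and Vector as wild type, and every group but the inhibitor cells as untreated. According to the series design the inhibitor was given to control-hairpin cells, but no group is labelled as vehicle, so inhibitor libraries were compared with shControl, and an effect of the solvent cannot be told apart from that of the compound. The name, dose and time of the inhibitor, the promoter of the cDNA and any selection of clones are not given in the sources used here, nor whether replicates were separate cultures, so p-values measure the spread between these libraries, which may be technical. The headers tell the control columns apart by a number alone. These numbers equal the library numbers that the labels give to shControl and to Vector, and the columns were assigned by them. This is an inference, so values with the control columns exchanged are given where they differ.

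STK17B stood at 12.7 and 10.9 TPM with sh1, 14.7 and 14.5 TPM with sh2, 24.9 and 22.4 TPM with the inhibitor and 27.1 and 27.4 TPM in shControl. It stood at 94.1 and 84.5 TPM with overexpression, against 28.2 and 31.5 TPM in Vector. In limma's test (Benjamini-Hochberg) its log2 change was -0.9985 in the mean of the hairpins (adjusted p = 6.99e-06), 1.55 with overexpression (adjusted p = 2.41e-06) and -0.20 with the inhibitor (adjusted p = 0.0902). Replicates agreed closely: the log2(TPM + 1) values of all tested genes had a Pearson correlation, across genes, of 0.991 to 0.993 in each pair. The median difference between replicates over the 32 genes was 0.02 to 0.07 log2 units. All 8 listed plasma cell and myeloma markers of 9 searched were expressed in every library, from 6.76 TPM at the lowest (SLAMF7) to 1417 TPM at the highest (FGFR3). Of 16 markers of other cell types, CD3D and CD3G were at 0 in all libraries, and EPCAM (at most 7.99 TPM), KRT18 (at most 7.97 TPM), CD3E (at most 7.74 TPM) and PECAM1 (at most 5.03 TPM) were the highest. The summed plasma cell and myeloma markers ran from 2030 to 2036 TPM with sh1, 2307 to 2321 TPM with sh2, 2350 to 2351 TPM with the inhibitor and 2836 to 2864 TPM in shControl, and from 3026 to 3061 TPM with overexpression against 3112 to 3141 TPM in Vector. The endothelial markers summed to 0.788 to 1.78 TPM in the hairpin, inhibitor and overexpression libraries, against 4.19 to 5.05 TPM in the controls. Nearly all of that sum was PECAM1, as VWF, the other gene listed, was at most 0.054 TPM. The part of either in the results was not tested.

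The promoters of 4 genes are shown, chosen after their values were seen, as examples of genes called in the mean of the hairpins under all 22 alternatives to the processing. SRSF11 and SRSF6 moved in opposite directions with the hairpins, HNRNPLL was higher with the hairpins, the inhibitor and the cDNA, and HNRNPH2 was higher with the hairpins and the cDNA. Each sequence runs 5′ to 3′ from 150 bases before to 30 bases from the transcription start, from RefSeq on GRCh38.p14, and the capitals mark matches to the motifs searched on both strands. They are chr1:70221230-70221409 on the plus strand for SRSF11, chr20:43457746-43457925 on the plus strand for SRSF6, chr2:38602899-38603078 on the minus strand for HNRNPLL and chrX:101408072-101408251 on the plus strand for HNRNPH2. The RefSeq start lies inside the GENCODE span of the gene for SRSF11 and HNRNPLL and before it for SRSF6 and HNRNPH2.
SRSF11: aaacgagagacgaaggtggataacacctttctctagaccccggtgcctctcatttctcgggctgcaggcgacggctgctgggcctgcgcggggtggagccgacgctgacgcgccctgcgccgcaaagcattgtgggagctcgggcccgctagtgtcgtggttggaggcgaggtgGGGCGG
SRSF6: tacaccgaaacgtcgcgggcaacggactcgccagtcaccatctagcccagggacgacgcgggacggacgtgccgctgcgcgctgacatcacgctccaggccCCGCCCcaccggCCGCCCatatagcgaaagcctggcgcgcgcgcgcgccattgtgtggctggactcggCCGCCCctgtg
HNRNPLL: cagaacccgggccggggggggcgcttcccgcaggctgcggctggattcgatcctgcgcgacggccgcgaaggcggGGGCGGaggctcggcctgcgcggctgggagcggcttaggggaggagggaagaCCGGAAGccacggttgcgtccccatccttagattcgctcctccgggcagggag
HNRNPH2: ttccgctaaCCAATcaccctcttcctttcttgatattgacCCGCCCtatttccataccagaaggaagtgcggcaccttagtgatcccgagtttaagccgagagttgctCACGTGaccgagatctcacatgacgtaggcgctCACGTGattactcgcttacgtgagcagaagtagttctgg

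The set of RefSeq promoters used here held 32 of the 34 genes and lacked HNRNPA1. The matches to the 5 motifs do not overlap in the 4 windows shown. A GC box (GGGCGG) was found in 20 of the 32 (62.5%), against 38.68% of all 35116 promoters in the same window. The 35116 were not limited to expressed genes, nor to 1 promoter per gene as the 32 were, so the shares come from unlike sets. A CCAAT box (the letters of its name) was found in 12 (37.5%), against 25.41% of all promoters. An E-box (CACGTG) was found in 6 (18.75%), against 5.19% of all promoters: HNRNPA3, HNRNPD, HNRNPH2, HNRNPH3, HNRNPM and HNRNPUL1. An ETS site (CCGGAAG) was found in 3 (9.38%), HNRNPF, HNRNPLL and SRSF5, against 8.32% of all promoters. A cyclic AMP response element (TGACGTCA) was found in none, against 1.6% of all promoters. HNRNPH2 held 2 E-boxes, a CCAAT box and a GC box, whereas SRSF11 held 1 GC box, SRSF6 held 3 GC boxes and HNRNPLL 1 GC box and 1 ETS site. These matches describe the letters and say nothing of binding.

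The set was abundant in every group. The 22 hnRNP genes together held 0.792% to 0.982% of all TPM of a library and the 12 SR protein genes 0.172% to 0.217%. The summed hnRNP level was 8107 and 7924 TPM with sh1, 8572 and 8533 TPM with sh2, 9815 and 9363 TPM with the inhibitor and 9100 and 9029 TPM in shControl. It was 8673 and 8681 TPM with overexpression, against 8851 and 8918 TPM in Vector. The hairpin libraries were thus below both shControl libraries and the inhibitor libraries above them. The summed SR protein level was 1831 and 1718 TPM with sh1, 1907 and 1900 TPM with sh2, 2166 and 2136 TPM with the inhibitor and 1940 and 1951 TPM in shControl, in the same order. With overexpression it was 1861 and 1832 TPM, against 1778 and 1845 TPM in Vector, and these overlapped. This order turned on the control. Against Vector the SR protein sum was higher in both sh2 libraries and overlapped with sh1, and against shControl it was lower in both overexpression libraries. The summed hnRNP level was lower in both overexpression libraries than in both Vector libraries. Within the hnRNP sum HNRNPA1, its most abundant gene, averaged 1929 TPM with sh1 and 2189 TPM with sh2, against 2527 TPM in shControl. In bulk RNA, fewer cells of a kind and less RNA per cell cannot be told apart.

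HNRNPA1, the silencer-binding founder of the A/B group, was the most abundant of the set with a mean of 2427 TPM over all libraries, rank 72 of all listed genes, followed by HNRNPA2B1 (1493 TPM), HNRNPC (595 TPM), HNRNPL (526 TPM) and HNRNPK (518 TPM). The SR protein genes were led by SRSF2 (457 TPM), SRSF9 (414 TPM) and SRSF7 (235 TPM). At the low end of the tested genes stood HNRNPLL (32.7 TPM), SRSF8 (17.5 TPM) and HNRNPA1L2 (17.0 TPM). Over the 6 group means, the median coefficient of variation of the 32 genes was 9.6%, against 15.22% for all 12731 tested genes. It was 12.22% for the 7215 tested genes with a mean of 10 TPM or more. Neither of these sets was matched to the 32 genes in abundance. SRSF11 varied most (25.61%, a highest library 2.39 times the lowest), then HNRNPLL (20.53%), and HNRNPH3 (3.39%), HNRNPK (3.95%) and HNRNPA2B1 (4.3%) varied least of the tested genes.

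**Figure D1:**
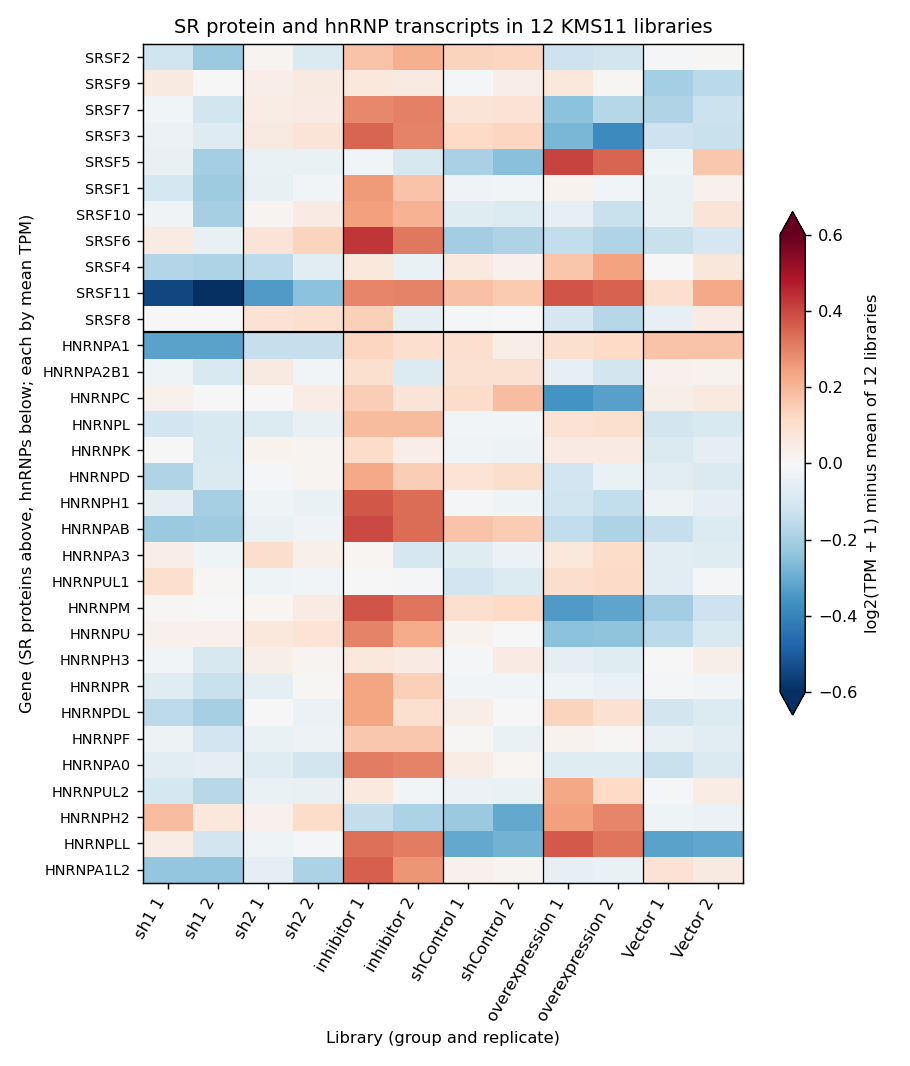
Each row is a tested SR protein or hnRNP gene and each column a library; colour gives log2(TPM + 1) minus the mean of the 12 libraries, red above and blue below. The inhibitor columns are mostly red, the sh1 columns mostly blue, and SRSF11 is lowest with sh1.

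Every gene was tested in a limma fit over all 12731 tested genes with Benjamini-Hochberg adjustment, and is said to be called, or to have risen or fallen, at an adjusted p below 0.05. Against shControl, the mean of both hairpins had 4 of 32 genes higher and 14 lower, 12.5% and 43.8% of the set, where 26.2% and 20.2% of all tested genes were called. Among the 5616 tested genes at least as abundant as the lowest of the set, 30.2% were called higher and 27.9% lower with the hairpin mean. These shares were 28.3% and 29.6% with sh1, and 26.4% and 19.7% with sh2. Their floor was a mean of 17.0 TPM, far below most of the set, so they are not matched to it in abundance. The median log2 change of the set was -0.07, against 0.03 for all tested genes. By family, 1 of 11 SR protein genes rose and 5 fell, and 3 of 21 hnRNP genes rose and 9 fell. With sh1 alone 4 rose and 16 fell (23.7% and 21.3% of all tested genes), and with sh2 alone 3 rose and 7 fell (22% and 13.4% of all tested genes). The count of fallen genes turned on the control: with the control columns exchanged 9 rose and 6 fell in the mean of the hairpins, where 18.6% and 29.4% of all tested genes were called. Leaving out shControl replicate 1 gave a median log2 change of -0.067 for the set and 0.019 for all tested genes. Leaving out replicate 2 gave -0.069 and 0.037. Median-of-ratios rescaling gave 4 higher and 20 lower (23.7% and 24.1% of all tested genes), and quantile normalization 5 and 10 (22.6% and 24.8%).

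The inhibitor gave the other direction. Against shControl 18 of the 32 genes were higher and none lower in the limma test. These are 56.2% and 0% of the set, where 28% and 11.8% of all tested genes were called. At an unadjusted p below 0.05 limma had 20 higher and 0 lower, where 34.1% and 14.8% of all tested genes passed. Of the 5616 genes at least as abundant as the lowest of the set, 43.3% were called higher and 12.6% lower. The median log2 change was 0.16 for the set and 0.08 for all tested genes. Of the SR protein genes 5 of 11 rose, and of the hnRNP genes 13 of 21. Under median-of-ratios rescaling 15 rose and 2 fell, where 18.4% and 16.4% of all tested genes were called. Under quantile normalization 13 rose and 0 fell (16.5% and 15.3% of all tested genes), and with the control columns exchanged 20 rose and 1 fell (26% and 27%).

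With overexpression 11 of the 32 genes were higher and 5 lower than in Vector (34.4% and 15.6%, where 26.6% and 10.3% of all tested genes were called). Of the 5616 genes at least as abundant as the lowest of the set, 31% were called higher and 17.1% lower, close to the shares of the set. This split depended on the scaling and the control: it was 4 higher and 17 lower under median-of-ratios rescaling, where 16.2% and 19.8% of all tested genes were called. It was 9 and 9 under quantile normalization (17.4% and 20.2% of all tested genes) and 8 and 12 with the control columns exchanged (44.9% and 13.7%). The median log2 change of the set was -0.012, and -0.024 to -0.012 with any Vector or overexpression library left out (0.066 to 0.097 for all tested genes). Over all tested genes the median log2 change was 0.08 on the deposited scale, -0.01 with median-of-ratios rescaling and -0.02 with quantile normalization. Of the SR protein genes 3 rose and 2 fell as deposited, and of the hnRNP genes 8 rose and 3 fell.

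The controls differed too. Vector had 3 of the 32 genes higher and 10 lower than shControl (9.38% and 31.2%, where 21.4% and 7.86% of all tested genes were called), though neither was made to change STK17B. Of the 5616 genes at least as abundant as the lowest of the set, 22.3% were called higher and 16% lower. With median-of-ratios rescaling 2 members were higher and 17 lower (13.8% and 15.4% of all tested genes), and with quantile normalization 3 and 7 (12.2% and 13%). The median log2 change of the set was -0.025, against 0.085 for all tested genes. It was -0.048 to -0.021 with any Vector or shControl library left out (0.065 to 0.101 for all tested genes). This comparison shares the shControl libraries with those of the hairpins and the inhibitor. HNRNPM was at -0.28 in Vector and -0.09 in the mean of the hairpins, HNRNPAB at -0.27 and -0.29, SRSF3 at -0.25 and -0.12, and SRSF7 at -0.24 and -0.09, each against shControl and on the log2 scale.

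**Figure D2:**
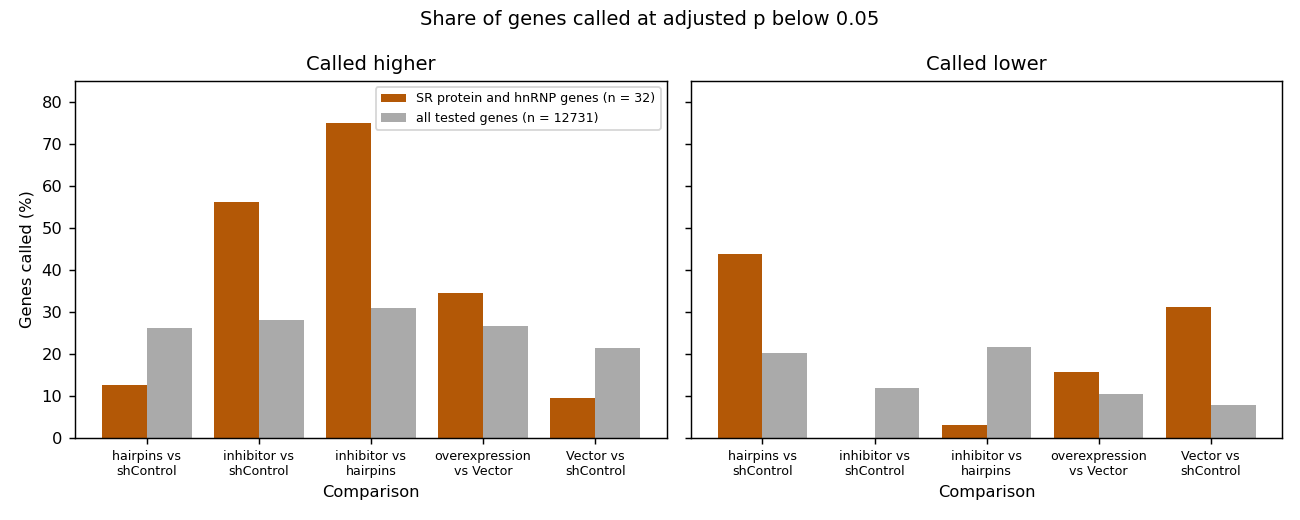
Bars give the share of genes called higher (left) and lower (right) in 5 comparisons, for the 32 SR protein and hnRNP genes and for all 12731 tested genes. With the inhibitor 56.2% of the set was called higher and none lower, and with the hairpins 43.8% was called lower.

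The contrast whose log2 differences use no control library, though its spread was estimated from all 12 libraries, set the inhibitor against both hairpins. In it 24 of the 32 genes were higher with the inhibitor and 1 lower, 75% and 3.12%, where 30.9% and 21.6% of all tested genes were called. Of the 5616 tested genes at least as abundant as the lowest of the set, 46.9% were called higher and 22.5% lower. The median log2 difference was 0.26 for the set and 0.04 for all tested genes. The split was 21 and 3 with median-of-ratios rescaling (27% and 25.2% of all tested genes) and 18 and 4 with quantile normalization (27.6% and 23.3%). The largest differences were those of SRSF11 (0.79, SE 0.073), HNRNPA1L2 (0.49, SE 0.047), HNRNPAB (0.49, SE 0.026) and HNRNPH1 (0.43, SE 0.036), and HNRNPH2 was the gene that was lower (-0.26, SE 0.043).

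**Figure D3:**
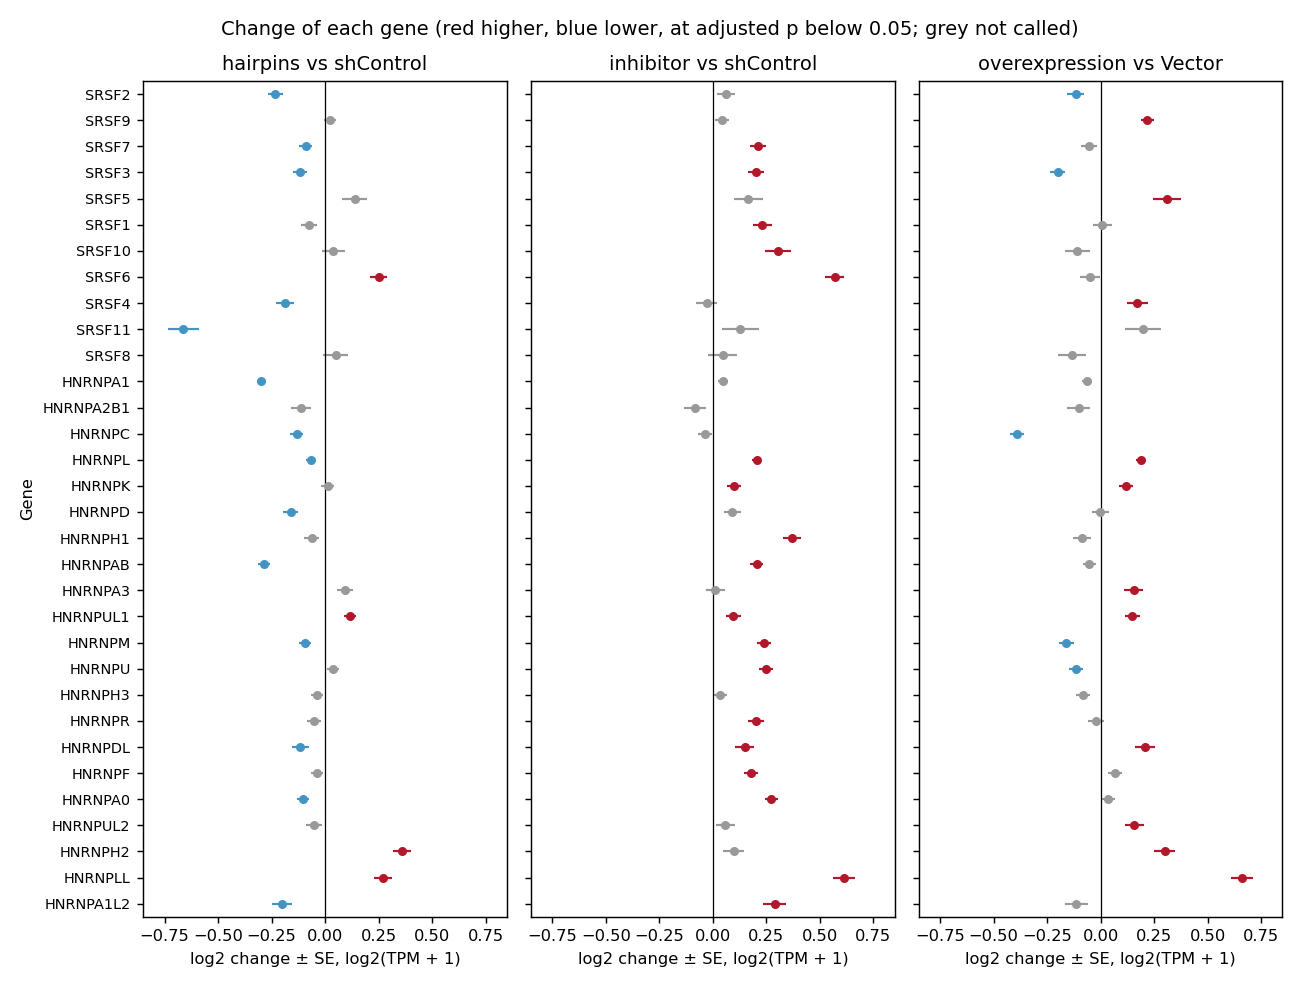
Points give the log2 change of each tested gene with its standard error, for the mean of the hairpins against shControl (4 and 2 libraries), the inhibitor against shControl and overexpression against Vector (2 and 2 libraries). SRSF11 is far below 0 with the hairpins, and HNRNPLL lies above 0 in all 3 panels.

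Among SR proteins, SRSF11, also known as p54, gave the largest fall of the set. SRSF11 (ENSG00000116754.13; GRCh38, GENCODE v29, chromosome 1, 70205682 to 70253052, plus strand, protein-coding with 16 annotated transcripts) stood at 33.4 and 26.8 TPM with sh1 and 38.7 and 41.3 TPM with sh2, against 55.6 and 55.0 TPM in shControl. All 4 hairpin libraries were below every other library of the series. SRSF11 fell by 0.66 log2 units in the mean of the hairpins (SE 0.073, adjusted p = 8.3e-05), or -36.8% on the log2(TPM + 1) scale. It fell by 0.87 with sh1 and by 0.46 with sh2, a difference of 0.41 between hairpins that did not pass (adjusted p = 0.0513). The fall was of the same size against Vector (-0.66), -0.69 with median-of-ratios rescaling and -0.67 with quantile normalization. SRSF11 was at 60.5 and 60.7 TPM with the inhibitor, and at 64.1 and 63.1 TPM with overexpression against 52.9 and 57.7 TPM in Vector. Neither difference passed (0.13, adjusted p = 0.257, and 0.20, adjusted p = 0.0928), although the groups did not overlap.

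SRSF6, a member with a pair of RNA recognition motifs, gave the largest rise among SR proteins with the hairpins and with the inhibitor. SRSF6 (chromosome 20, 43457928 to 43464247, plus strand, protein-coding) stood at 90.1 and 84.3 TPM with sh1, 91.7 and 95.4 TPM with sh2, 117 and 109 TPM with the inhibitor and 75.2 and 76.4 TPM in shControl. Hairpin and inhibitor libraries were all above shControl, and the inhibitor libraries were the highest of the series. The log2 change was 0.25 in the mean of the hairpins (SE 0.040, adjusted p = 0.000758) and 0.57 with the inhibitor (SE 0.046, adjusted p = 2.36e-05). With overexpression SRSF6 was at 78.4 and 76.6 TPM, against 79.3 and 81.0 TPM in Vector, and was not called (-0.05, adjusted p = 0.447).

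SRSF2 (SC35), which marks nuclear speckles and binds exonic enhancers, stood at 419 and 390 TPM with sh1, 460 and 429 TPM with sh2, 513 and 527 TPM with the inhibitor and 499 and 498 TPM in shControl. It fell with the hairpins (-0.23, SE 0.035, adjusted p = 0.000561), in 4 of 4 libraries, and not detectably with the inhibitor (0.06, adjusted p = 0.257). Overexpression libraries had 418 and 421 TPM, against 451 and 458 TPM in Vector, a fall of -0.12 with an adjusted p of 0.0492 that was lost in 12 of 22 alternatives. SRSF4 (SRp75), the largest of the classical members, fell to a mean of 75.2 ± 3.06 TPM with the hairpins (n = 4), against 85.8 ± 1.47 TPM in shControl (n = 2, SD), a log2 change of -0.19 (adjusted p = 0.00495). It was higher with overexpression (0.17, adjusted p = 0.0195), which was not called under either rescaling.

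SRSF9 (SRp30c) was not called with the hairpins or the inhibitor. It stood at 430 and 412 TPM with sh1, 425 and 429 TPM with sh2, 432 and 429 TPM with the inhibitor and 410 and 425 TPM in shControl. The sh1 libraries overlap shControl, and the sh2 and inhibitor libraries lie above it before rounding. It stood at 433 and 416 TPM with overexpression, against 359 and 370 TPM in Vector, the lowest libraries of the series. The log2 change with overexpression was 0.22 (SE 0.032, adjusted p = 0.000699), and it was not called with the control columns exchanged, where the overexpression libraries overlap shControl. SRSF5 (SRp40), another member with a pair of RNA recognition motifs, was highest with overexpression at 179 and 172 TPM, against 132 and 151 TPM in Vector. This is a log2 change of 0.31 (SE 0.067, adjusted p = 0.00578), kept in all 22 alternatives. It stood at 131 and 117 TPM with sh1, 131 and 131 TPM with sh2, 133 and 126 TPM with the inhibitor and 118 and 113 TPM in shControl, none of them called.

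SRSF3, the smallest SR protein, and SRSF7 (9G8), which carries a zinc knuckle and helps mRNA export, were both highest with the inhibitor. SRSF7 stood at 231 and 217 TPM with sh1, 241 and 242 TPM with sh2, 285 and 288 TPM with the inhibitor and 247 and 248 TPM in shControl. The inhibitor libraries were the highest of the series (0.21, SE 0.037, adjusted p = 0.0019). With overexpression SRSF7 was at 197 and 208 TPM, against 206 and 214 TPM in Vector, and was not called (-0.05, adjusted p = 0.295). SRSF3 averaged 260 ± 6.63 TPM with the inhibitor and 226 ± 1.1 TPM in shControl (SD, n = 2 each), a log2 change of 0.20 (adjusted p = 0.00223). It fell with overexpression, to 165 ± 8.66 TPM against 190 ± 0.82 TPM in Vector (-0.20, adjusted p = 0.00248). With the hairpins both genes were below shControl (-0.12 for SRSF3 and -0.09 for SRSF7) and above Vector, where they were 0.13 and 0.15 higher.

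SRSF10 (SRp38), which becomes a splicing repressor when dephosphorylated, rose with the inhibitor to 116 and 112 TPM, against 92.3 and 91.8 TPM in shControl (0.30, SE 0.060, adjusted p = 0.0033). It stood at 95.8 and 84.6 TPM with sh1 and 98.3 and 101 TPM with sh2, and was not called there. Overexpression libraries had 94.0 and 88.6 TPM, against 94.5 and 103 TPM in Vector. SRSF1 (SF2/ASF), the prototype SR protein, rose with the inhibitor too (0.23, adjusted p = 0.00284), but was not called with quantile normalization. It was called lower with sh1 (-0.14, adjusted p = 0.027) and not with sh2 (-0.01, adjusted p = 0.856). Of its 50-base words 50.8% occur in other annotated genes, though 0% in other genes of the table. SRSF8, an intronless relative of SRSF2, ranged over 15.4 to 19.4 TPM and was called in none of the 8 comparisons.

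**Figure D4:**
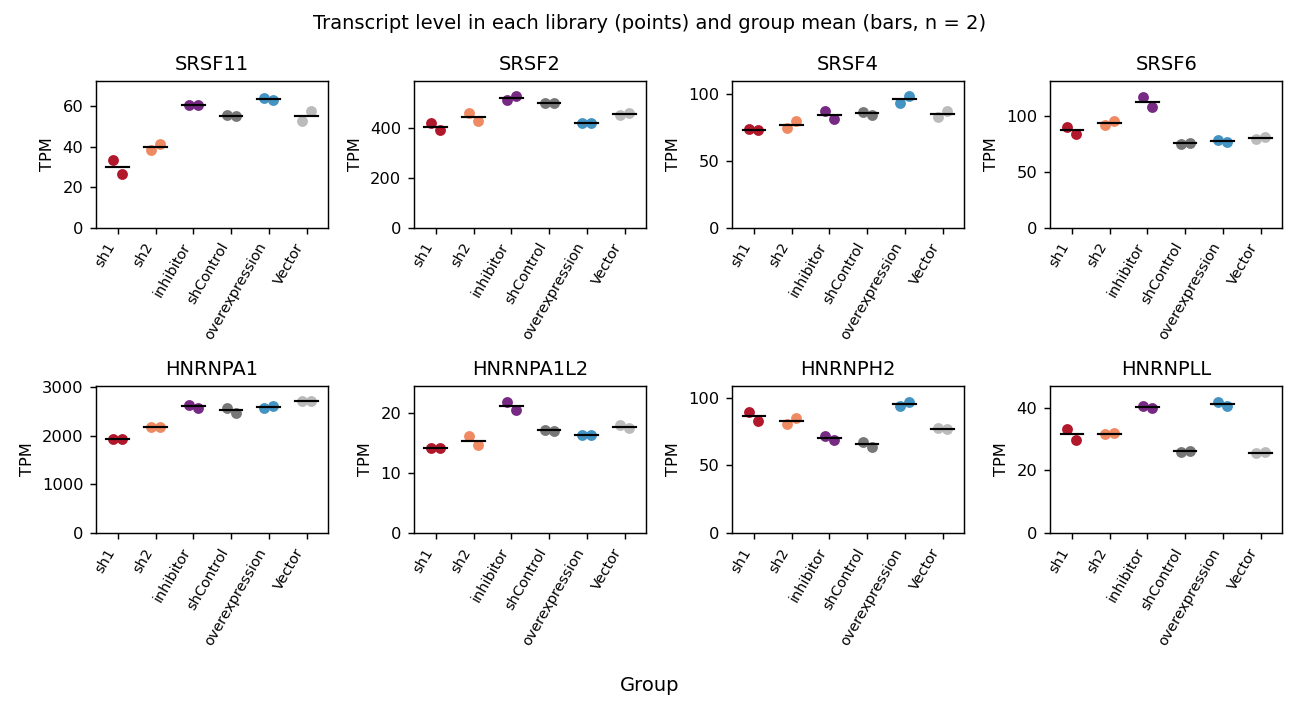
Points are TPM in each library and bars the group means, for the 8 genes called in the mean of the hairpins against shControl under all 22 alternatives. SRSF11, SRSF2, SRSF4, HNRNPA1 and HNRNPA1L2 are lower with the hairpins, and SRSF6, HNRNPH2 and HNRNPLL higher.

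In the hnRNP A/B group, whose members bind UAG-rich silencers, the most abundant gene fell with both hairpins. HNRNPA1 (ENSG00000135486.17; chromosome 12, 54280193 to 54287088, plus strand, protein-coding with 14 annotated transcripts) stood at 1928 and 1929 TPM with sh1, 2191 and 2188 TPM with sh2, 2633 and 2584 TPM with the inhibitor and 2580 and 2474 TPM in shControl. The 4 hairpin libraries were the lowest of the series. The fall was 0.30 log2 units in the mean of the hairpins (-0.30, SE 0.021, adjusted p = 5.01e-06), and -0.40 against Vector. With overexpression HNRNPA1 was at 2572 and 2616 TPM, against 2712 and 2712 TPM in Vector, and was not called (-0.06, adjusted p = 0.0597). Of the 50-base words of HNRNPA1 17.7% occur in other genes of the table, foremost HNRNPA1P10 and HNRNPA1L2. HNRNPA1L2, an intronless copy on chromosome 13, fell with the hairpins as well, at 14.2 and 14.2 TPM with sh1, 16.1 and 14.6 TPM with sh2 and 17.2 and 17.0 TPM in shControl (-0.20, adjusted p = 0.00633). Of the 50-base words in its annotated transcript 51.4% occur in other genes of the table, HNRNPA1 above all, so its level is uncertain. It was higher with the inhibitor, at 21.8 and 20.4 TPM (0.29, adjusted p = 0.00251). Overexpression libraries had 16.2 and 16.4 TPM, against 17.9 and 17.5 TPM in Vector.

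HNRNPA2B1, which also sorts RNAs into transport granules and exosomes, was not called in the main comparisons. It stood at 1464 and 1399 TPM with sh1, 1546 and 1473 TPM with sh2, 1595 and 1408 TPM with the inhibitor and 1591 and 1587 TPM in shControl. With overexpression it was at 1440 and 1381 TPM, against 1516 and 1513 TPM in Vector. It was called in the sh1 comparison only of the 8 (-0.15, adjusted p = 0.0402). The mean of the hairpins was at -0.11 (adjusted p = 0.0676), and the inhibitor libraries spanned shControl. HNRNPA3 was called with overexpression alone (0.15, adjusted p = 0.0192), and not with median-of-ratios rescaling or with Vector replicate 1 or 2 left out.

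HNRNPAB (CBF-A) and HNRNPA0, which binds AU-rich elements, fell with the hairpins and rose with the inhibitor. HNRNPAB was at 312 and 314 TPM with sh1, 354 and 359 TPM with sh2, 480 and 459 TPM with the inhibitor and 410 and 405 TPM in shControl. It stood at 329 and 321 TPM with overexpression, against 330 and 344 TPM in Vector, close to the hairpin libraries. Its log2 change was -0.29 with the hairpins (SE 0.026, adjusted p = 2.61e-05), lost with the control columns exchanged, and 0.20 with the inhibitor (adjusted p = 0.000726), lost with quantile normalization. HNRNPA0 was at 84.9 and 85.5 TPM with sh1, 84.4 and 82.1 TPM with sh2, 110 and 109 TPM with the inhibitor and 91.6 and 89.5 TPM in shControl. With overexpression it was at 84.4 and 84.2 TPM, against 80.8 and 83.5 TPM in Vector. The inhibitor libraries were the highest of the series (0.27, SE 0.030, adjusted p = 0.000139). The hairpin change of -0.10 (SE 0.026, adjusted p = 0.00951) was at 0.0351 with the control columns exchanged and was not called without shControl replicate 1.

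HNRNPC, which measures the length of nascent transcripts and binds their uridine tracts, had its fall with overexpression. It stood at 461 and 472 TPM with overexpression, against 606 and 616 TPM in Vector. Both overexpression libraries were below every other library of the series, and the log2 change was -0.39 (SE 0.034, adjusted p = 4.29e-05), kept in all 22 alternatives. HNRNPC was at 602 and 591 TPM with sh1, 590 and 609 TPM with sh2, 655 and 624 TPM with the inhibitor and 639 and 673 TPM in shControl. The hairpin change of -0.13 (adjusted p = 0.005) was lost against Vector and without shControl replicate 2. HNRNPM, a binder of GU-rich introns, and HNRNPU (SAF-A), which anchors RNA and chromatin to the nuclear scaffold, were lower with overexpression too, at -0.16 and -0.12, and higher with the inhibitor, at 0.24 and 0.25. The HNRNPM fall was kept in all 22 alternatives, and that of HNRNPU in 17.

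Of the AU-rich element binders, HNRNPD (AUF1) fell with the hairpins (-0.16, adjusted p = 0.00436), but not against Vector (0.01), and its paralog HNRNPDL, near it on chromosome 4, rose with overexpression. HNRNPDL was at 149 and 144 TPM with overexpression, against 125 and 128 TPM in Vector (0.21, adjusted p = 0.00583), which was not called with median-of-ratios rescaling or against shControl. With sh1 it stood at 121 and 118 TPM, with sh2 at 135 and 132 TPM, with the inhibitor at 160 and 145 TPM and in shControl at 139 and 135 TPM. Its fall with the hairpins (-0.12) and its rise with the inhibitor (0.15) were each lost in several alternatives, 8 and 7 of 22.

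The F/H group binds runs of guanines, and its paralogs HNRNPH1 and HNRNPH2 were called in different ones of the 3 main comparisons. HNRNPH1 rose with the inhibitor to 501 and 487 TPM, against 384 and 379 TPM in shControl (0.37, SE 0.041, adjusted p = 0.00015), and it was at 372 and 337 TPM with sh1 and 380 and 375 TPM with sh2. With overexpression it was at 356 and 349 TPM, against 378 and 370 TPM in Vector. The inhibitor libraries were the highest of the series and only that comparison with shControl was called. HNRNPH2, on chromosome X, stood at 89.8 and 82.5 TPM with sh1, 80.5 and 85.3 TPM with sh2, 71.4 and 69.0 TPM with the inhibitor and 67.5 and 63.7 TPM in shControl. With overexpression it was at 93.6 and 97.0 TPM, against 77.5 and 76.9 TPM in Vector. It rose with the hairpins (0.36, SE 0.043, adjusted p = 0.000124; 0.13 against Vector) and with overexpression (0.30, SE 0.049, adjusted p = 0.0014), and was not called with the inhibitor (0.10, adjusted p = 0.148). Of its 50-base words 14.5% occur in other listed genes, foremost the readthrough RPL36A-HNRNPH2. HNRNPF rose with the inhibitor (0.18), not called with quantile normalization, and HNRNPH3 was called in none of the 8 comparisons.

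HNRNPLL, the lymphoid paralog of the CA-repeat binder hnRNPL that also governs CD45 exon skipping in T cells, rose in all 3 main comparisons. HNRNPLL (ENSG00000143889.15; chromosome 2, 38561978 to 38603586, minus strand, protein-coding with 12 annotated transcripts) stood at 33.2 and 29.8 TPM with sh1, 31.6 and 31.9 TPM with sh2, 40.6 and 40.0 TPM with the inhibitor and 25.8 and 26.2 TPM in shControl. It stood at 41.7 and 40.5 TPM with overexpression, against 25.5 and 25.7 TPM in Vector. The 4 control libraries were the lowest of the series and the Vector and shControl groups were 0.02 log2 units apart. The log2 change was 0.27 with the hairpins (SE 0.043, adjusted p = 0.000779), 0.61 with the inhibitor (SE 0.050, adjusted p = 2.47e-05) and 0.66 with overexpression (SE 0.050, adjusted p = 1.82e-05). Hairpins and inhibitor share the shControl libraries, and overexpression has controls of its own. All 3 calls were kept in all 22 alternatives. Its paralog HNRNPL was at 0.21 with the inhibitor, 0.19 with overexpression and -0.07 with the hairpins.

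HNRNPK, a KH-domain binder of cytosine-rich RNA and DNA, was at 0.10 with the inhibitor and 0.12 with overexpression, calls kept in 10 and 16 of 22 alternatives, and neither was called with median-of-ratios rescaling. HNRNPR, a relative of SYNCRIP, rose with the inhibitor (0.20, adjusted p = 0.0023). Of the relatives of hnRNPU, HNRNPUL1 was called in all 3 main comparisons (0.12 with the hairpins, 0.10 with the inhibitor and 0.15 with overexpression), but the inhibitor call was lost in 15 of 22 alternatives. The hairpin call did not hold against Vector or without shControl replicate 1, and the overexpression call with median-of-ratios rescaling and without Vector replicate 1. HNRNPUL2 was called with overexpression (0.16; lost in 5). Of 50-base words of HNRNPUL2 43.2% are shared with its readthrough HNRNPUL2-BSCL2. In all, 3 of the 32 genes, HNRNPA2B1, HNRNPH3 and SRSF8, were called in none of the main comparisons.

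Ratios between pairs of genes within a library are the same under any scaling by 1 factor per library. The pairs were chosen after their values were seen, so the ratios are a description. HNRNPL over HNRNPLL was 14.6 and 16.5 with sh1, 15.7 and 16.0 with sh2, 14.7 and 15.0 with the inhibitor and 20.1 and 19.8 in shControl. It was 13.4 and 13.8 with overexpression, against 19.1 and 19.2 in Vector, so that every control library was above every other library. HNRNPH1 over HNRNPH2 was 4.15 and 4.08 with sh1, 4.72 and 4.40 with sh2, 7.02 and 7.06 with the inhibitor and 5.70 and 5.96 in shControl, and 3.80 and 3.6 with overexpression against 4.87 and 4.82 in Vector. The hairpins and the inhibitor lay on opposite sides of shControl.

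SRSF6 over SRSF11 was 2.70 and 3.15 with sh1, 2.37 and 2.31 with sh2, 1.94 and 1.79 with the inhibitor and 1.35 and 1.39 in shControl. It was 1.22 and 1.21 with overexpression, against 1.5 and 1.4 in Vector, so this ratio was above shControl with sh1, sh2 and the inhibitor and below Vector with the cDNA. SRSF5 over SRSF3 was 1.05 and 1.08 with overexpression, against 0.695 and 0.797 in Vector, and 0.494 to 0.646 in the other 8 libraries. HNRNPA1 over HNRNPA2B1 was 1.32 and 1.38 with sh1, 1.42 and 1.49 with sh2, 1.65 and 1.84 with the inhibitor and 1.62 and 1.56 in shControl, and it overlapped between overexpression (1.79 and 1.89) and Vector (1.79 and 1.79).

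**Figure D5:**
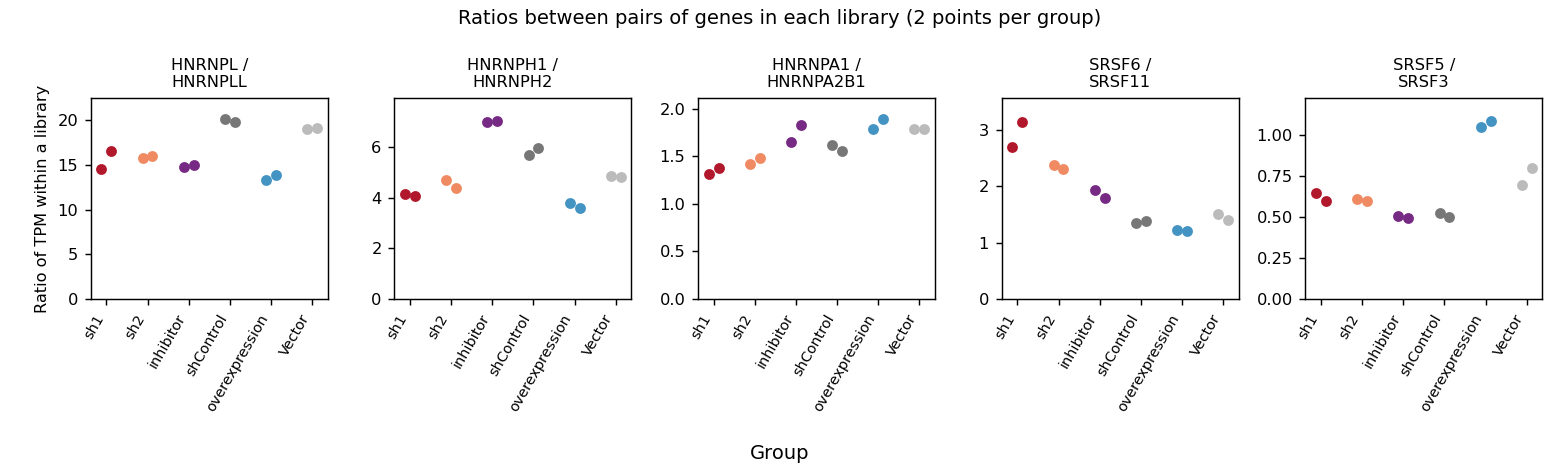
Points give the ratio of TPM between a pair of genes in each library, 2 libraries per group. HNRNPL over HNRNPLL is highest in the 4 control libraries, and SRSF5 over SRSF3 is above 1 with overexpression alone.

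The hairpins were alike but not equal. Between sh2 and sh1, 2 of the 32 genes were higher and none lower in limma's test (1.16% and 0.385% of all tested genes), and 11 higher and 0 lower at an unadjusted p below 0.05 (13% and 5.06% of all tested genes). The median log2 difference was 0.08 for the set and 0.03 for all tested genes. The called genes were HNRNPA1 (0.18, SE 0.024, adjusted p = 0.0114) and HNRNPAB (0.19, SE 0.030, adjusted p = 0.0246), both lower with sh1. Leaving out sh1 replicate 2, sh2 replicate 1 or sh2 replicate 2 left 0 called.

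Other splicing genes were counted in the same fit, from lists chosen with earlier results of these data known. Their counts stand against the shares of all tested genes given for each comparison. At an unadjusted p below 0.05 in limma, 29.7% of all tested genes were higher and 23.2% lower with the hairpins. These shares were 34.1% and 14.8% with the inhibitor, and 30.2% and 11.1% in Vector against shControl. Over the 3 main comparisons and the 22 alternatives, 787 of these counts stayed within 1.5 times and 137 did not. Of 9 tested SR protein kinases and phosphatase genes 5 rose and 2 fell with the hairpins, 4 rose and 1 fell with the inhibitor, and 2 rose and 1 fell with overexpression. CLK3, a kinase of the arginine-serine tail, had 61.9 ± 2.80 TPM with the hairpins (SD, n = 4), 55.8 ± 2.0 TPM with the inhibitor and 81.2 ± 0.97 TPM in shControl (n = 2 each), so it fell by 0.39 and by 0.53. It rose with overexpression to 144 ± 0.65 TPM, against 98.6 ± 1.36 TPM in Vector (0.54, adjusted p = 2.06e-05). CLK2 rose there as well (0.42), SRPK2 rose with the hairpins (0.29) and DYRK1A with the inhibitor (0.29). The median log2 change of the list was 0.24 with the hairpins, 0.14 with the inhibitor and 0.11 with overexpression. In Vector against shControl 5 rose and 1 fell, with a median of 0.245. With the control columns exchanged 1 rose and 4 fell with the hairpins, and likewise with the inhibitor, and 7 rose and 1 fell with overexpression. Under either rescaling 2 rose and 1 fell with the inhibitor.

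Of 13 SR-related and exon junction genes 2 rose and 5 fell with the hairpins, 10 rose and none fell with the inhibitor (limma, 10 and 0 at an unadjusted p below 0.05; median 0.27), and 2 rose and 1 fell with overexpression. After median-of-ratios rescaling 0 of them rose and 3 fell with overexpression, and after quantile normalization 1 rose and 3 fell. TRA2B, a splicing activator with a pair of arginine-serine domains, was at 0.39 with the inhibitor and -0.16 with overexpression, and the export adaptor ALYREF at 0.35 with the inhibitor. SRRM1 (-0.24), a splicing coactivator, and EIF4A3 (-0.22), the helicase of the exon junction complex, fell with the hairpins, and PNN rose with overexpression (0.23). Of 16 other RNA-binding protein genes 1 rose and 7 fell with the hairpins, 9 rose and 1 fell with the inhibitor, and 2 rose and 1 fell with overexpression. After median-of-ratios rescaling 6 rose and 1 fell with the inhibitor, and 0 rose and 4 fell with overexpression. After quantile normalization the counts were 5 and 1 with the inhibitor and 1 and 1 with overexpression. PCBP2, a KH-domain binder of cytosine-rich RNA, rose by 0.30 with the inhibitor, QKI and RALY were both at -0.27 with the hairpins, and SYNCRIP (-0.18) and CELF1 (0.17) were called with overexpression.

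Of 12 tested U2AF and SF3 genes 1 rose (SF3B1, 0.14) and 4 fell with the hairpins, 7 rose and none fell with the inhibitor (limma, 8 and 0 at an unadjusted p below 0.05; median 0.26), and 1 rose and 3 fell with overexpression. With overexpression 0 of these genes rose and 9 fell after median-of-ratios rescaling, and 1 rose and 6 fell after quantile normalization. With the inhibitor 7 rose and 1 fell under either rescaling. SF3B2 was at -0.28 with the hairpins, SF3B4 at 0.43 and SF3A3 at 0.34 with the inhibitor, and PHF5A at -0.24 and SF1 at -0.22 with overexpression. Of 18 snRNP protein genes none rose and 8 fell with the hairpins (limma, 1 and 10 at an unadjusted p below 0.05; median -0.10), 10 rose and 1 fell with the inhibitor, and 2 rose and 7 fell with overexpression. After median-of-ratios rescaling 5 snRNP protein genes rose and 2 fell with the inhibitor, and 1 rose and 12 fell with overexpression. After quantile normalization the counts were 3 and 3 with the inhibitor and 2 and 10 with overexpression. SNRPC (-0.35) and SNRPA (-0.33) led the falls with the hairpins, SNRPD1 (0.31) and PRPF3 (0.30) the rises with the inhibitor. With overexpression SNRNP70, the U1 protein that SR proteins contact, was at 462 ± 7.53 TPM, against 332 ± 9.81 TPM in Vector (SD, n = 2 each; 0.48), and SNRPG was at -0.41.

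The importins of splicing factors, TNPO1, TNPO2 and TNPO3, all rose with the inhibitor (0.26 for TNPO1 and 0.23 for TNPO2), and TNPO3, the importin of SR proteins, fell with the hairpins and with overexpression (-0.15 in each). With overexpression TNPO3 averaged 61.1 TPM, against 67.9 TPM in Vector and 60.9 TPM in shControl, so that fall was not seen against shControl. Under either rescaling, and with the control columns exchanged, 2 importins were called higher with the inhibitor. Of 10 nonsense-mediated decay genes 3 rose and 2 fell with the hairpins, 9 rose and none fell with the inhibitor (limma, 9 and 0 at an unadjusted p below 0.05; median 0.29), and 3 rose and 1 fell with overexpression. After median-of-ratios rescaling 7 of these genes rose and 0 fell with the inhibitor, and 1 rose and 5 fell with overexpression. After quantile normalization the counts were 6 and 0 with the inhibitor and 3 and 5 with overexpression. SMG6, the endonuclease of the pathway, was at 0.40 with the hairpins and 0.47 with overexpression, UPF3A at 0.39 with the hairpins, SMG9 at 0.39 and SMG5 at 0.38 with the inhibitor, and SMG1 at -0.30 with overexpression.

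Genes of the same lists were called between the controls. In Vector against shControl 0 of the 18 snRNP protein genes rose and 8 fell (limma, 0 and 10 at an unadjusted p below 0.05; median -0.13), as many as with the hairpins, whose comparison shares the shControl libraries. With the control columns exchanged, 5 of them rose and 3 fell with the hairpins, 14 rose and 0 fell with the inhibitor, and 1 rose and 13 fell with overexpression. Of the SR-related and exon junction genes 4 rose and 5 fell in Vector (median -0.08), of the other RNA-binding protein genes 1 and 5 (median -0.02) and of the U2AF and SF3 genes 1 and 4 (median -0.06). Of the importins 2 rose and 0 fell in Vector (limma, 2 and 0 at an unadjusted p below 0.05; median 0.13), and of the nonsense-mediated decay genes 4 rose and 0 fell (limma, 6 and 0 at an unadjusted p below 0.05; median 0.16). With the control columns exchanged, the hairpin counts were 6 higher and 3 lower for the SR-related genes, 1 and 4 for the other RNA-binding proteins, 4 and 3 for U2AF and SF3, 0 and 2 for the importins and 3 and 3 for nonsense-mediated decay. In the same order of lists, the inhibitor counts were then 10 and 3, 7 and 0, 9 and 0, 2 and 0, and 5 and 1. Those with overexpression were 5 and 5, 4 and 3, 2 and 8, 1 and 0, and 4 and 1.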

How the data were processed

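The authors deposited TPM, 1 value per gene and library, which add up to the same sum in every library. The submitters' processing notes name GRCh38.p13, RSEM 1.3.1, DESeq2 1.4.5, Bowtie2 2.3.4.3 and HISAT, with roles not given. TPM keep no read depth, so depth is unknown. Genes that reached 1 TPM in 2 or more libraries were tested on log2(TPM + 1), a scale that understates changes of low genes, with limma 3.58.1 in R 4.3.3 (1 fit of 6 group means over all 12 libraries, eBayes with trend, Benjamini-Hochberg, threshold 0.05); the fit was tested on simulated data. The members and lists were chosen with earlier results of these data known. Values in every library are given for the 3 most abundant genes of each family and up to 6 called genes with the largest changes in each main comparison, and up to 2 called genes of each related list are named, of which 1 is not reported here. SF3B6 was not found by symbol, and SRPK3 was too low to test. Shared 50-base words were counted in GENCODE v29 transcripts, which may differ from the authors' annotation. Alternatives were other pseudocounts, filters and scalings, a fit of only the groups compared, no trend, a replicate block, exchanged control columns and each library left out, 22 in all.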

Additional observations from a re-analysis of the deposited data

Results flagged for a closer look

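A direct test between the hairpins flagged HNRNPA1, 0.18 log2 units higher with sh2 than with sh1, and HNRNPAB, 0.19 higher. Against shControl, HNRNPA1 was at -0.39 with sh1 and -0.21 with sh2, and HNRNPAB at -0.38 with sh1 and -0.19 with sh2. Neither difference between the hairpins was called with median-of-ratios rescaling. No group was large enough for a search for outlying libraries.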

How the results depend on the processing

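Of the 32 genes, 8 of 18 calls with the hairpins, 12 of 18 with the inhibitor and 6 of 16 with overexpression were kept in all 22 alternatives; the cause of the losses was not tested. After the median of ratios the members called lower were 11 with sh2, 2 with the inhibitor, 17 with overexpression, 17 in Vector and 3 in the inhibitor against the hairpins, 4 were higher with overexpression and 0 between the hairpins. After quantile normalization 5 were higher with sh2, 9 lower with overexpression and 4 lower in the inhibitor against the hairpins. STK17B with the inhibitor passed after the median of ratios (-0.27), after quantile normalization (-0.29) and with exchanged controls (-0.32).

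With the control columns exchanged, 9 members were higher and 6 lower with the hairpins (18.6% and 29.4% of all tested genes). With sh1 9 were lower (29.8%), and with sh2 8 were higher and 4 lower (16% and 22.1%). With the inhibitor 1 was lower (27%), and with overexpression 12 were lower (13.7%). The sign turned for HNRNPA0 (0.0351), HNRNPD (0.01), HNRNPL (0.0158), HNRNPM (0.19), SRSF3 (0.13) and SRSF7 (0.15) in the mean of the hairpins, for HNRNPA0 (0.052), HNRNPM (0.17), SRSF3 (0.0708) and SRSF7 (0.0923) with sh1 and for HNRNPA0 (0.0181) and HNRNPAB (0.0808) with sh2. The exchange only turns the sign in Vector against shControl and was not run for it. After quantile normalization HNRNPK in the inhibitor against the hairpins was at -0.0109.

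A filter at 5 TPM and a fit of only the groups compared each gave 5 higher with sh2 (25.8% and 20.1% of all tested genes). That fit gave 1 higher in Vector (15.5%) and 0 between the hairpins (0.0314%). Without a trend 3 were lower with overexpression (9.46%) and 0 higher between the hairpins (0.118%). Leaving out each library gave 8 to 16 lower with the hairpins, 10 to 16 lower with sh1, 4 to 7 lower with sh2, 0 to 1 lower with the inhibitor, 6 to 12 higher and 3 to 6 lower with overexpression, 0 to 3 higher and 6 to 12 lower in Vector, 0 to 2 higher between the hairpins, and 1 to 2 lower in the inhibitor against the hairpins. The lowest came without shControl replicate 1 or 2 for the hairpins and sh2, without shControl replicate 2 or sh1 replicate 2 for sh1, without Vector replicate 1 for overexpression higher and Vector lower, without shControl replicate 2 for Vector higher, and without sh1 replicate 2 or sh2 replicate 1 or 2 between the hairpins. Without inhibitor replicate 1 both inhibitor counts of lower members were at their highest. The replicate numbers did not pair the libraries (1 of 15 pairs of groups over 0.1), and the replicate block left every count of members within 1.5 times. It gave 17 higher with the inhibitor (27.2% of all tested genes) and 4 lower with overexpression (10%). TPM hold no depth, so low genes such as SRSF12 have no detection limit here.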
